A study of Bos taurus with 8 samples.

Results

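The FK506-binding proteins (FKBPs) are prolyl isomerases, enzymes that turn the peptide bond before a proline and so help proteins fold. They are named after the immunosuppressant FK506 (tacrolimus), which several of them bind. Liver RNA of fetal calves was examined here for 8 genes of the family, FKBP1A, FKBP1B, FKBP2, FKBP3, FKBP4, FKBP5, FKBP8 and FKBP10, out of 12603 genes to which an array probe could be matched. The members were all probes whose RefSeq accession belongs to one of these genes, which gave 15 probes, 14 of them detected, with at least 1 detected probe for each gene. As a family they were selected on the difference in signal between the nutritional groups in these same arrays. Those differences are therefore given as a description, without a test.

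The small cytosolic members, FKBP1A and FKBP1B, bind calcium release channels, the ryanodine and inositol trisphosphate receptors, and FKBP1A also binds type I receptors of the TGF-beta family. With a drug bound, FKBP1A blocks calcineurin (FK506) or mTOR (rapamycin). FKBP4 and FKBP5 are larger co-chaperones that bind HSP90 in steroid receptor complexes, where FKBP5 lowers hormone binding by the glucocorticoid receptor and is itself induced by glucocorticoids. FKBP2 and FKBP10 reside in the endoplasmic reticulum, FKBP3 is mainly nuclear, and FKBP8 is anchored in the outer mitochondrial membrane, where it binds BCL2.

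The samples were livers of Japanese Black fetuses at 8.5 months post-conception, 4 from dams fed 60% of their nutritional requirement during gestation (LN) and 4 from dams fed 120% (HN). Each liver was hybridised to 1 Agilent bovine array in 1 colour. By the study's methods the dams were inseminated with male-sorted semen of a single sire, and the lightest LN and heaviest HN fetuses were taken, with no group at the full requirement. The samples are labelled as single fetuses, while the series' general description speaks of pooled RNA, and they were treated here as 8 fetuses. The LN arrays shared 1 slide and scan and the HN arrays another, so that slide, scan and diet cannot be told apart. LN arrays had 32635 to 33371 spots well above background and HN arrays 33254 to 34369, of 43803, with 0 saturated. Before normalization the arrays of LN fetuses L6 and L9 were the dimmest, with a median log2 signal of 5.97 and 6.09, against 6.30 to 6.71 on the other 6 arrays. The 8 hepatocyte markers examined, among them albumin (ALB) and transferrin (TF), were all detected. The log2 of their summed signal, 20.88 to 20.99, is held nearly level by quantile normalization, since the brightest of them rank at the top of every array, and alpha-fetoprotein (AFP) ranged from 16.09 to 17.47.

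FKBP1B was the member that differed most between the groups, and it was measured by 2 probes of accession NM_001098158. The study also made a PCR primer pair for this accession. The pair, from a PCR assay separate from the arrays, is shown in lower case and from 5′ to 3′ because it was designed for the same accession as the probes. Its position relative to the probes was not examined.
FKBP1B forward primer: cagaattggcaaacaggaagtcat
FKBP1B reverse primer: agttccttcctgccttcactcta

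The primers are 24 and 23 bases long. The accession matters for the name, because the reference table also lists FKBP1B as an old synonym of FKBP1A, whose own probes carry NM_001035456.

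The brighter FKBP1B probe gave a log2 signal of 8.48, 5.05, 8.12 and 6.42 in LN fetuses L5, L6, L8 and L9. In HN fetuses L1, L2, L3 and L10 it gave 8.73, 9.46, 8.71 and 9.67. Every LN fetus lay below every HN fetus, but by very different distances. Relative to the HN mean, fetuses L6 and L9 stood at -4.10 and -2.73 on the log2 scale, whereas L5 and L8 stood at -0.66 and -1.02. The LN mean was 7.02 ± 1.59 and the HN mean 9.14 ± 0.49 (SD, n = 4), a difference of -2.13 (standard error 0.70), or 4.37-fold lower in LN. Among all 10860 detected genes, 0.571% were more than 2-fold lower in LN and 0.617% more than 2-fold higher. The groups were without overlap for 4.14% of them, with LN lower for 1.56% and higher for 2.59%. FKBP1B was the only 1 of the 8 members in any of these classes, and since it was selected on this contrast nothing is read from that count. In whole liver, fewer cells that express a gene and less of its RNA per cell cannot be told apart.

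**Figure D1:**
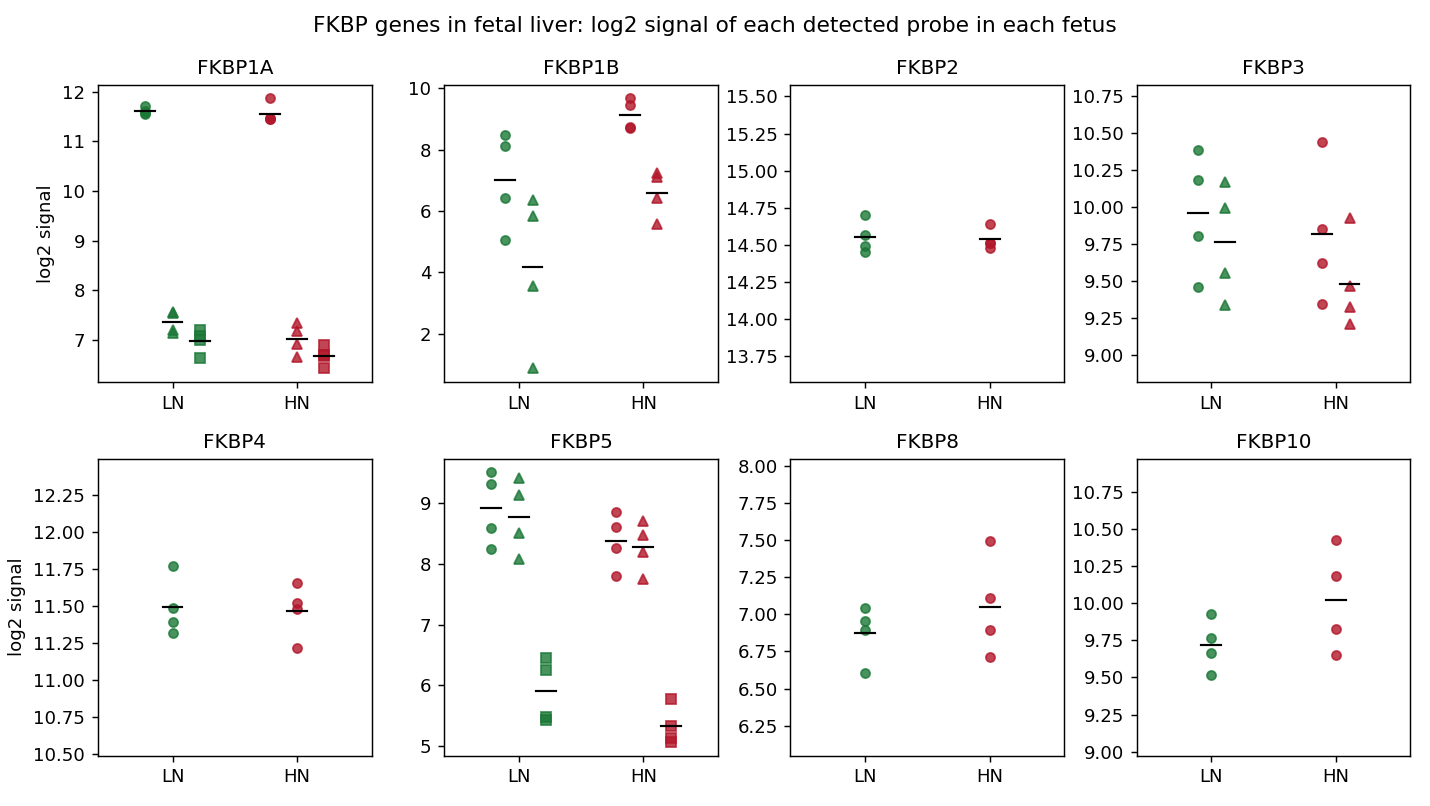
Log2 signal (vertical axis, quantile normalized, scaled separately in each panel) of each detected probe of the 8 FKBP genes in each LN (green) and HN (red) fetus; each symbol shape within a panel is 1 probe and each black line a group mean (n = 4). FKBP1B is the panel in which the groups separate by the brighter probe (circles), with LN fetuses at 5.05 to 8.48 and HN fetuses at 8.71 to 9.67; levels of different probes cannot be compared.

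The dimmer FKBP1B probe showed the same order of fetuses at its lower end. It gave 6.38, 0.87, 5.84 and 3.56 in LN fetuses L5, L6, L8 and L9, and 6.44, 7.11, 5.59 and 7.25 in HN fetuses L1, L2, L3 and L10. L6 was not well above background for this probe, and HN fetus L3 lay below LN fetuses L5 and L8, so that the groups overlapped. With 3 of 4 LN fetuses well above background, no size is given for this probe. Over the 8 arrays the probes of FKBP1B correlated with a Pearson coefficient of 0.98, and of 0.99 after the group means were removed. These coefficients include L6, the lowest fetus by both probes, and were not computed without it. Both probes were hybridised with the same RNA, so this is agreement between measurements and not between animals.

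The size of the FKBP1B difference depended on LN fetuses L6 and L9, which were also the dimmest arrays. FKBP1B correlated with the median signal of the array before normalization (Pearson 0.80, Spearman 0.52, n = 8 arrays). With that median as a covariate the difference was -1.38, and with both dimmest arrays left out it was -0.84 (standard error 0.32), with LN still below HN in every fetus left. Without L6 alone it was -1.47. The part of array brightness in the FKBP1B result was not tested further. With normexp background correction the brighter probe differed by -1.58.

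FKBP1A, the close relative of FKBP1B, was nearly level by its brightest probe. That probe gave 11.62, 11.70, 11.57 and 11.55 in LN fetuses L5, L6, L8 and L9 and 11.46, 11.86, 11.44 and 11.45 in HN fetuses L1, L2, L3 and L10. All LN fetuses lay between the highest HN fetus, L2, and the other HN fetuses, which lay between 11.44 and 11.46. The difference was 0.053 (standard error 0.13), and it was 0.16 without HN fetus L2 and 0.017 to 0.073 without any other single fetus. The other probes of FKBP1A differed by 0.33 and 0.30, with LN fetuses at 7.15 to 7.56 and 6.65 to 7.21 and HN fetuses at 6.66 to 7.34 and 6.43 to 6.90, and overlapped as well. All 3 probes of FKBP1A were higher in LN on average, but they disagreed on the size, and the brightest probe correlated with the others at only 0.52 and 0.55 over the 8 arrays, against 0.86 between the dimmer ones.

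FKBP5, the glucocorticoid-induced co-chaperone, had the highest difference of the members. Its brightest probe (NM_001192862) gave 8.59, 9.33, 8.24 and 9.51 in LN fetuses L5, L6, L8 and L9 and 8.86, 8.27, 8.61 and 7.81 in HN fetuses L1, L2, L3 and L10. The highest fetuses were L6 and L9 in LN, and the lowest was L10 in HN, while L5 and L8 lay among the HN fetuses. The difference was 0.53 (standard error 0.33), or 1.45-fold higher in LN. The other detected probes of FKBP5 differed by 0.50 and 0.57, and the 3 probes correlated with one another at 0.94 to 1.00 over the 8 arrays. A further FKBP5 probe stayed near background in all 8 fetuses and gives no value. With both dimmest arrays left out, the difference of FKBP5 was 0.029. It was 0.33 without L9 alone, 0.39 without L6 alone, 0.34 without HN fetus L10 and 0.34 with array brightness as a covariate.

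FKBP1B and FKBP5 ran in opposite directions over the fetuses. Fetuses L6 and L9 had the lowest FKBP1B and the highest FKBP5 signals, and L10 had the highest FKBP1B and the lowest FKBP5. The Pearson correlation was -0.84 over 8 arrays (Spearman -0.64), and -0.80 with the group means removed. Without the 2 arrays farthest from the FKBP1B median, L6 and L9, it was -0.55 over 6 arrays. Over 8 arrays the pair had the lowest of the 28 correlations between members, which is given as a description. These points share the array and its brightness, with which FKBP5 correlated at -0.56 (Spearman -0.43).

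**Figure D2:**
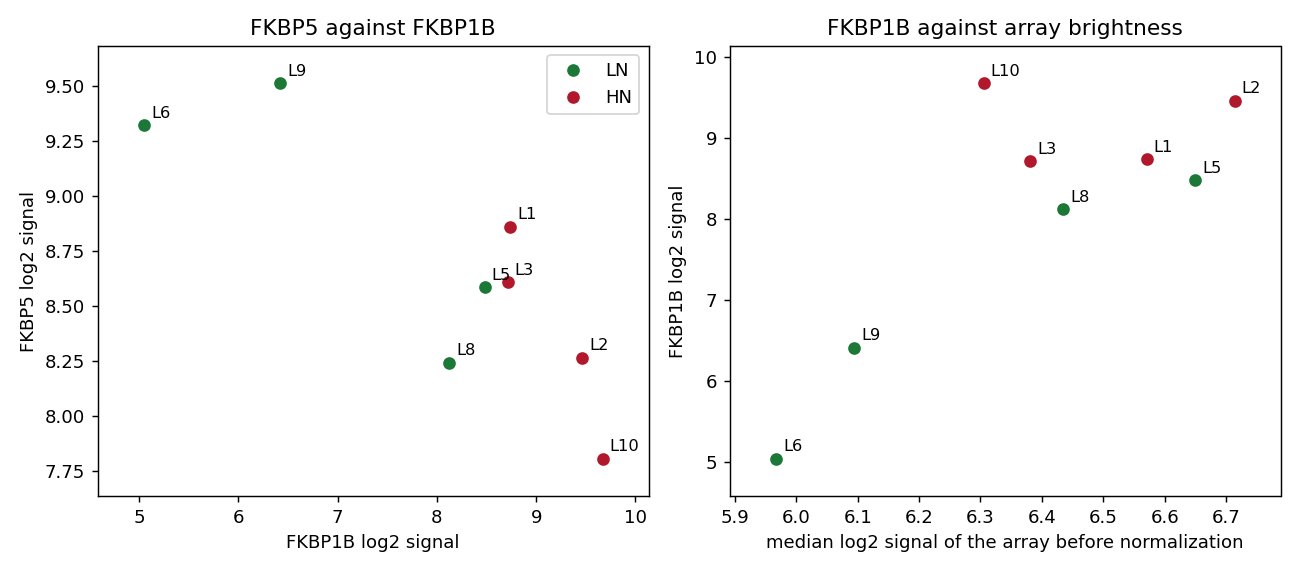
Left, log2 signal of FKBP5 (vertical) against FKBP1B (horizontal) by the brightest probe of each, 1 point per fetus, LN in green and HN in red; right, FKBP1B against the median log2 signal of the array before normalization. Fetuses L6 and L9 are apart from the others on both, with FKBP1B at 5.05 and 6.42 and array medians at 5.97 and 6.09.

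FKBP4, which shares the HSP90 complex with FKBP5, was nearly level. Its single probe (NM_001034322) gave 11.32, 11.39, 11.49 and 11.77 in LN fetuses L5, L6, L8 and L9 and 11.66, 11.48, 11.52 and 11.22 in HN fetuses L1, L2, L3 and L10. The groups overlapped throughout, with a difference of 0.024 (standard error 0.15). Over the fetuses FKBP4 correlated with FKBP5 at 0.65 and with FKBP1B at -0.29 (n = 8 arrays).

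Of the members in the endoplasmic reticulum, FKBP2 was the steadiest. It gave 14.57, 14.45, 14.49 and 14.70 in LN and 14.48, 14.51, 14.51 and 14.64 in HN, in the order of fetuses above, and differed by 0.017 (standard error 0.11). FKBP10, a chaperone of collagen, gave 9.52, 9.77, 9.93 and 9.66 in LN and 9.65, 10.43, 9.82 and 10.18 in HN. HN fetuses L2 and L10 lay above every LN fetus, whereas L1 and L3 lay among them. The difference of FKBP10 was -0.30 (standard error 0.19), and it lay between -0.42 and -0.17 when single fetuses were left out, the latter without HN fetus L2.

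FKBP3, the nuclear member, varied more between fetuses than between groups. Its brighter probe gave 10.38, 9.46, 10.18 and 9.80 in LN and 9.85, 10.43, 9.35 and 9.62 in HN, with a difference of 0.14 (standard error 0.27), and its other probe differed by 0.28. The probes correlated at 0.95 over the 8 arrays. FKBP3 also correlated with array brightness, at 0.72, and its difference was 0.46 (standard error 0.16) with brightness as a covariate and between -0.013 and 0.35 with each fetus left out in turn. FKBP8, the mitochondrial member, gave 6.89, 6.60, 7.04 and 6.95 in LN and 6.89, 7.11, 6.71 and 7.49 in HN. Its difference was -0.18 (standard error 0.19), and HN fetus L10 stood highest. It was -0.032 without L10 and -0.29 without HN fetus L3, the ends of the range with each fetus left out. With normexp it was -0.088 and with 75th percentile scaling -0.27.

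By the brightest detected probe, 5 of the 8 members were higher and 3 lower in LN, where 51.6% of all detected genes were higher. The median difference was 0.020 over the members and 0.0075 over all detected genes. Those 5 include FKBP2, FKBP3 and FKBP4, whose differences changed sign under some alternatives. Without LN fetus L9, and without both dimmest arrays, 3 members were higher and 5 lower. Within the family, FKBP1B, FKBP8 and FKBP10 were lower together, with correlations of 0.64 (FKBP1B and FKBP8), 0.48 (FKBP1B and FKBP10) and 0.60 (FKBP8 and FKBP10) over 8 arrays. These include the group difference, and with the group means removed they were 0.60, 0.17 and 0.52. FKBP5 ran against all of them, at -0.73 with FKBP8 and -0.64 with FKBP10, and at -0.68 and -0.51 with the group means removed.

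**Figure D3:**
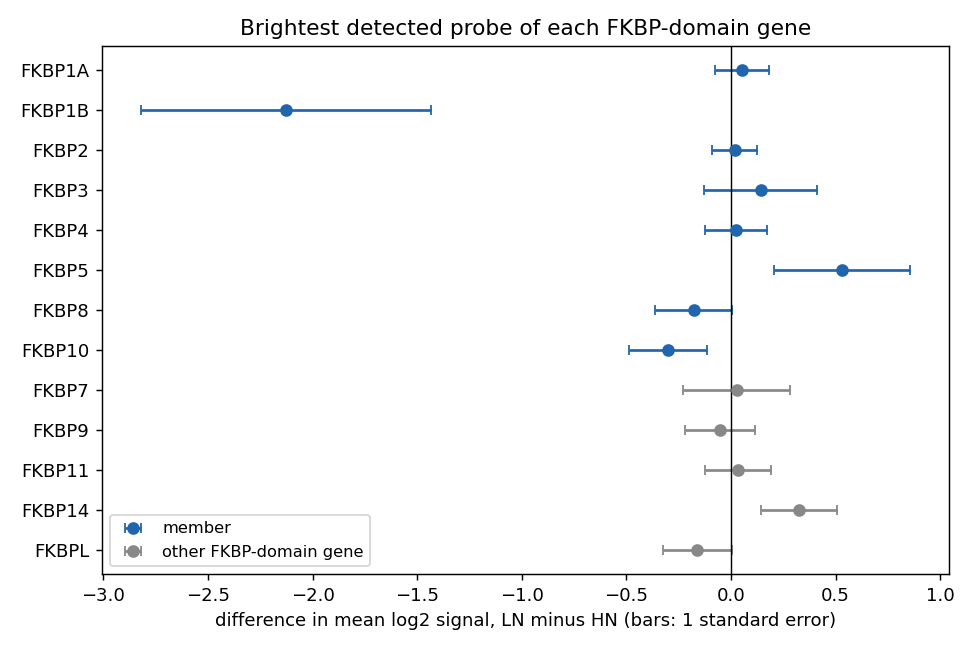
Difference in mean log2 signal between LN and HN (horizontal axis, LN minus HN; bars are 1 standard error of the limma fit, n = 4 fetuses per group) for the 8 members (blue) and 5 other genes with an FKBP or FKBP-like domain (grey). FKBP1B at -2.13 is far from the rest, which lie between -0.30 and 0.53.

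Of 8 further genes examined with an FKBP or FKBP-like domain, 7 had a probe, and 5 were detected, 3 of them higher and 2 lower in LN. By limma 0 of the 5 passed an adjusted p of 0.05, 0 had an unadjusted p of 0.05 or less, and 0 were without overlap. Over the 33439 probes tested 0 passed the adjusted threshold (lowest limma adjusted p = 0.634) and 6.32% the unadjusted one. By gene 6.05% had an unadjusted p of 0.05 or less, 3.3% higher and 2.75% lower in LN. FKBP14, another isomerase of the endoplasmic reticulum that acts on collagen, was 0.32 higher (standard error 0.18, limma adjusted p = 0.799, exact permutation p = 0.143). It was 9.24, 8.88, 8.97 and 8.91 in LN fetuses L5, L6, L8 and L9 and 8.46, 9.13, 8.72 and 8.39 in HN fetuses L1, L2, L3 and L10, and HN fetus L2 alone reached the LN values. Its second probe differed by 0.065. FKBPL, an HSP90 co-chaperone, differed by -0.16 (standard error 0.16). FKBP7, FKBP9 and FKBP11, all of the secretory pathway, differed by 0.028, -0.053 and 0.033, each less than its standard error. FKBP6 and AIPL1, genes of testis and retina, were not well above background on any array. For FKBP15 no probe was matched, and it was not analysed here.

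The other prolyl isomerases, cyclophilins and parvulins, had 17 of 19 genes detected. Of all detected genes, 51.6% were higher in LN and 6.05% had an unadjusted p of 0.05 or less, the background for this list and those below. Of the 17, 14 were higher and 3 lower in LN, with a median difference of 0.12. By limma 0 of them passed an adjusted p of 0.05 and 0 an unadjusted p of 0.05. Without LN fetus L5, 10 were higher and 7 lower, and the median was 0.053 without LN fetus L8 and 0.057 without HN fetus L3. PPIG, a nuclear cyclophilin linked to splicing, was 10.94, 11.04, 10.96 and 10.94 in LN fetuses L5, L6, L8 and L9 and 10.78, 10.69, 10.87 and 10.79 in HN fetuses L1, L2, L3 and L10, without overlap. Its difference was 0.19 (standard error 0.10, limma unadjusted p = 0.0957, limma adjusted p = 0.793). The exact permutation p was 0.0286, the smallest that 4 fetuses against 4 can give. PPIG was the only 1 of the list without overlap, where 4.14% of all detected genes were. The other 3 probes of PPIG were higher by 0.068 to 0.24 and overlapped. RANBP2, a nuclear pore protein with a cyclophilin domain, was 0.26 higher (standard error 0.13, limma adjusted p = 0.790), while 1 of its other probes differed by -0.13.

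The HSP90 and steroid receptor complex, in which FKBP4 and FKBP5 work, had 14 of 16 genes detected. Of these, 12 were higher and 2 lower in LN, where 51.6% of all detected genes were higher, and the median difference was 0.29. By limma 0 passed an adjusted p of 0.05, and 3 were higher at an unadjusted p of 0.05 or less, where 3.3% of all detected genes were. That count was 1 without LN fetus L8, without LN fetus L9 and with slide position as a block. PTGES3, the p23 co-chaperone of HSP90, was 12.81, 12.75, 12.67 and 12.86 in LN fetuses L5, L6, L8 and L9 and 12.65, 12.52, 12.53 and 12.09 in HN fetuses L1, L2, L3 and L10. Every LN fetus lay above every HN fetus, by a small margin, where 2.59% of all detected genes had no overlap with LN higher. The difference was 0.33 (standard error 0.14, limma adjusted p = 0.785). The other PTGES3 probe differed by 0.083 with overlap, and without HN fetus L10 the difference of PTGES3 was 0.20. The other 2 were HSP90AA1, the inducible HSP90, at 0.47 (standard error 0.19), and NR3C2, the mineralocorticoid receptor, at 0.49 (standard error 0.17), both with overlap and named after their values were seen. Of 18 alternatives, PTGES3 was above an unadjusted p of 0.05 under 10, HSP90AA1 under 8 and NR3C2 under 2. NR3C1, the glucocorticoid receptor, differed by 0.15 (standard error 0.16). DNAJB1, an HSP40 co-chaperone, differed by 0.93 (standard error 0.45), with HN fetus L10 lowest at 9.50. L10 was also the lowest fetus for HSPA8 (13.68) and HSP90AB1 (14.70), and without it the median of the list was 0.19, with 12 genes still higher. With both dimmest arrays left out, 12 of 14 were higher as well.

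**Figure D4:**
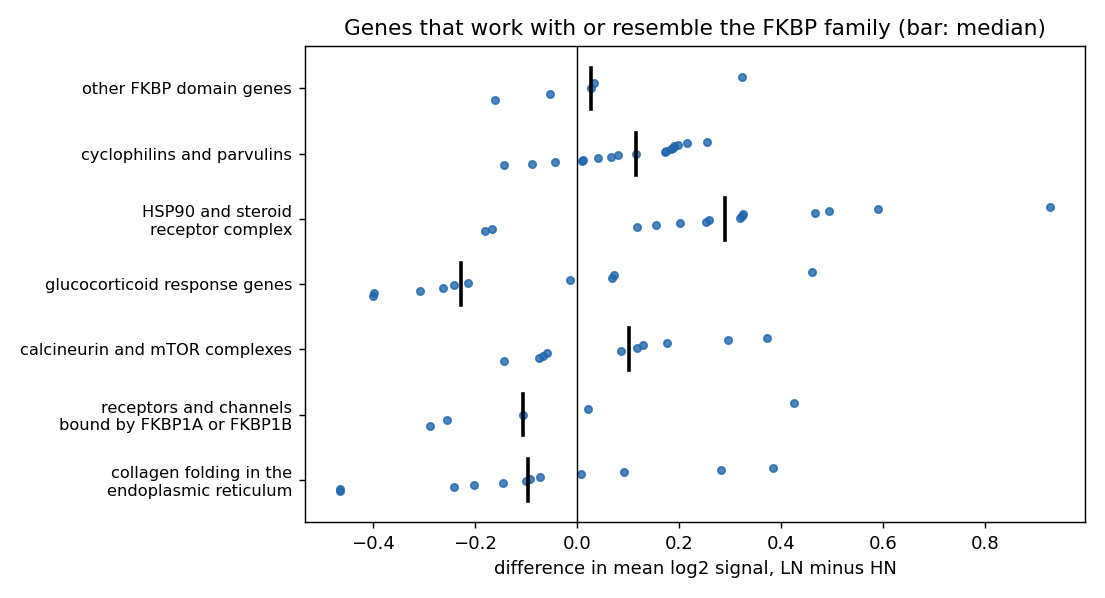
Difference in mean log2 signal between LN and HN (horizontal axis, LN minus HN) for each detected gene of 7 lists that resemble or work with the FKBP family; each point is 1 gene by its brightest detected probe and each bar the median of a list. The HSP90 and steroid receptor complex has the highest median, 0.29, and glucocorticoid response genes the lowest, -0.23.

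Of 11 genes known to respond to glucocorticoids, as FKBP5 does, 10 were detected, 3 higher and 7 lower in LN, with a median of -0.23, and by limma 0 passed an adjusted p of 0.05 or an unadjusted p of 0.05. ZBTB16, a zinc finger repressor, was 0.46 higher (standard error 0.25, limma adjusted p = 0.793), and 0.24 with normexp and 0.25 without both dimmest arrays. Without HN fetus L2 it was 0.69 higher (limma unadjusted p = 0.0059), and under the other 17 of 18 alternatives that p was above 0.05. SGK1, a kinase that regulates ion transport, differed by -0.31 (standard error 0.22, limma adjusted p = 0.839), and by -0.13 without LN fetus L5 and -0.18 without HN fetus L1. In LN fetus L6, the dimmest array, with the second-highest FKBP5 signal, TSC22D3 (11.73), CEBPD (13.55), NFKBIA (13.72) and PDK4 (12.97) were at their highest among the 8 fetuses. So were ERRFI1 (13.11) and TAT (13.04), whereas SGK1 was highest in HN fetus L1 (11.49) and DUSP1 in LN fetus L8 (13.33). L9, with the highest FKBP5, was the highest fetus for ZBTB16 (7.52) and KLF9 (6.47), but not for TSC22D3 (10.89) or PDK4 (11.04). Without LN fetus L5, whose PDK4 was the lowest, 6 genes were higher and 4 lower, and the median of the list turned to 0.068. Leaving out L6 gave a median of -0.42, L8 -0.080, HN fetus L1 -0.12 and both dimmest arrays -0.49.

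Among the partners of FKBP1A and FKBP1B, 5 of 10 receptors and channels were detected, 2 higher and 3 lower, with a median of -0.11. By limma 0 passed an adjusted p of 0.05 and 1 an unadjusted p of 0.05, where 3.3% of all detected genes were higher at that p, namely ACVR1, a type I receptor for bone morphogenetic proteins. It was 7.00, 7.16, 6.87 and 7.28 in LN fetuses L5, L6, L8 and L9 and 6.81, 6.59, 6.86 and 6.34 in HN fetuses L1, L2, L3 and L10, without overlap. LN was higher without overlap for 2.59% of all detected genes. The difference of ACVR1 was 0.43 (standard error 0.15, limma adjusted p = 0.760), and its other probe was 0.33 higher with overlap. ACVR1 was no longer below an unadjusted p of 0.05 without LN fetus L6, LN fetus L9, HN fetus L2 or HN fetus L10, without both dimmest arrays, with brightness as a covariate, with slide position as a block or with 75th percentile scaling. Its difference under these alternatives was 0.28 (without both dimmest arrays) to 0.43. The median of the list was -0.33 without LN fetus L5, -0.033 without L6 and -0.16 without L8. Without both dimmest arrays it was -0.20, with 75th percentile scaling -0.24, with the mean over detected probes -0.24, with normexp -0.0050 and without the filter on dim probes -0.043. TGFBR1 differed by -0.25 (standard error 0.15) and ITPR2, an inositol trisphosphate receptor of hepatocytes, by -0.29 (standard error 0.14). The ryanodine receptors were not among the detected genes. For calcineurin, NFAT and the mTOR complexes, 10 of 13 genes were detected, 6 higher and 4 lower, with a median of 0.10 and 0 genes at an unadjusted or adjusted limma p of 0.05. That median was 0.028 without LN fetus L8, 0.064 without HN fetus L3 and 0.029 with the mean over detected probes. PPP3CA, a catalytic subunit of calcineurin, was 0.37 higher (standard error 0.17, limma adjusted p = 0.785), and NFATC1, a transcription factor that calcineurin activates, 0.30 higher (standard error 0.16, limma adjusted p = 0.792). The difference of NFATC1 was 0.17 without HN fetus L2, 0.14 with 75th percentile scaling and 0.15 with normexp, and that of PPP3CA 0.19 without both dimmest arrays.

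For collagen folding, to which FKBP10 belongs, 12 of 14 genes were detected, 4 higher and 8 lower, with a median of -0.096 and 0 genes at an unadjusted or adjusted limma p of 0.05. The fibrillar collagen COL1A2 differed by -0.46 (standard error 0.25, limma adjusted p = 0.793), and HN fetus L2 was highest for it (14.92), as for FKBP10 and COL1A1 (14.43). SERPINH1, the collagen chaperone HSP47, was 0.28 higher (standard error 0.17, limma adjusted p = 0.807). Without L2 COL1A2 differed by -0.22 and SERPINH1 by 0.43, and the median of the list turned to 0.025. That median was -0.22 without HN fetus L3 and -0.043 without LN fetus L9.

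Markers of other cell types moved with FKBP1B and FKBP5 in part. The log2 of the summed signal of 6 detected neutrophil markers of 7 listed was 12.93 to 14.48 in LN and 12.15 to 13.32 in HN, and over the 8 arrays it correlated with FKBP1B at -0.72 and with FKBP5 at 0.70. Of these 6, 5 were higher in LN, and CATHL4, MPO and ELANE lay above every HN fetus in all LN fetuses, against backgrounds of 51.6% and 2.59% of detected genes. That of 5 detected striated muscle markers of 8 was 8.63 to 9.41 in LN and 8.92 to 9.57 in HN. It correlated at 0.80 and -0.86. All 5 were lower in LN on average, where 51.6% of all detected genes were higher, and MYL2, TNNT2 and CKM were not detected. HN fetus L10 stood far above the others for MYH7 (7.64, others 5.05 to 5.51) and MB (5.85, others 3.86 to 4.43). TNNI3 was dim, at 2.41 to 4.33. For 4 cholangiocyte markers of 5 the range was 13.01 to 13.39 in LN and 13.05 to 13.21 in HN, with correlations of -0.84 and 0.78. A sum follows its brightest gene, here KRT19, and taken singly KRT19 correlated with FKBP1B at -0.63 and EPCAM at 0.47, in the opposite direction. Of the neutrophil markers LTF (0.064) did not follow the others, which ran from -0.49 to -0.89, while all 5 muscle markers ran from 0.28 to 0.68. The 4 detected erythroid markers of 7 were at 8.13 to 12.62 in LN, with L5 highest, and 7.52 to 9.08 in HN, and correlated at -0.010 and 0.020. The sums of macrophage, endothelial and stellate markers correlated with FKBP1B at -0.32, -0.71 and 0.24 and with FKBP5 at 0.33, 0.52 and -0.34. Of the endothelial markers, STAB2 (0.086) and VWF (-0.00062) did not follow FKBP1B, while the others ran from -0.50 to -0.68. With FKBP5, STAB2 was at -0.24. Single stellate markers ran from -0.49 (LRAT) to 0.45 (LUM) with FKBP1B, and macrophage markers from -0.35 (CD14) to 0.11 (VSIG4). All these marker correlations include the difference between the groups, and none was computed with the group means removed. The part of other cell types in the FKBP1B and FKBP5 results was not tested.

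The genes whose signal followed FKBP1B most closely over the 8 fetuses, among 10859 others, were WWP2, SH3BP2, RIC8A, ACAP3 and ESPNL, with Pearson correlations of 0.99, 0.98, 0.97, 0.96 and 0.95. These genes were chosen for likeness to FKBP1B over arrays of both groups, so a lower mean in LN is partly set by the choice. Their log2 differences were -0.11 (RIC8A) to -0.46 (SH3BP2) for 4 of them. With the group means removed the correlations were 0.97, 0.95, 0.95, 0.91 and 0.96. ESPNL was well above background in only 2 of 4 LN fetuses, and no size is given for it. For FKBP5 they were DRAM2, ARRDC2, TAF5, BRAP and CPNE8, with correlations of 0.97, 0.97, 0.96, 0.96 and 0.95. Their differences were small, from 0.081 (BRAP) to 0.32 (CPNE8) higher in LN, a direction that is again partly set by the choice. With the group means removed the correlations with FKBP5 were 0.96, 0.98, 0.94, 0.96 and 0.95. With 8 arrays and this many genes these are descriptions of likeness in these arrays.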

How the data were processed

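RNA from the livers of 8 fetuses (4 LN, 4 HN) was hybridised to Agilent Bovine (v2) arrays. The authors deposited scanner files of Feature Extraction 11.0.1.1 (per the submitters' processing notes), in which the processed intensity is background-subtracted within the array and not normalized between arrays. A second deposited file, the authors' own log2 table of 31068 probes, was quantile normalized in GeneSpring GX by the methods, which name no test for the arrays. Control and outlier spots were left out (16 probes), log2 values of replicate spots were averaged, and 43637 probes were quantile normalized. Detection required the scanner's well-above-background flag on 4 or more of the 8 arrays (33439 probes). Accessions of 26740 probes were matched to RefSeq genes (ARS-UCD2.0). The array was designed on UMD 3.1, so no coordinates are given. Each of 10860 genes was taken by its brightest detected probe, and levels of different probes were not compared.

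Differences were fitted in limma 3.58.1 under R 4.3.3 with lmFit and eBayes, with 2-sided p adjusted by Benjamini-Hochberg across detected probes. Exact permutation tests used all 70 divisions of the fetuses. The number of arrays limits the precision. The fit was tested on simulated data. The members, gene lists and tests were chosen with earlier results of these data known. Named were all members, the other FKBP genes, list genes without overlap at an unadjusted p of at most 0.05 or, where a list had none, its 2 with the lowest p. Other list genes were named after their values were seen. Also named were the 5 genes most like FKBP1B and FKBP5. Protein and promoter sequences were not used here. A further listed gene is not reported here.

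Alternatives were 75th percentile scaling, normexp (offset 50, on spot and background medians), the authors' log2 table, no filter, detection on all 8 arrays, trend and robust eBayes, slide position as a block, the mean over a gene's probes and each fetus left out. Array brightness as a covariate and leaving out both dimmest arrays were added after seeing the data.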

Additional observations from a re-analysis of the deposited data

Results flagged for a closer look

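Of 58 sets of 4 fetuses tested for a fetus far from the others, 2 had one, where chance gives about 1 in 20. For the brightest FKBP1A probe, HN fetus L2 was at 11.86 and the nearest HN fetus at 11.46, a gap of 0.957 of the range of the group. For FKBP9, LN fetus L9 lay above the nearest LN fetus, at 8.83, by a gap of 0.847 of the range.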

How the results depend on the processing

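The differences of FKBP1B, FKBP5, FKBP8, FKBP10 and FKBP1A kept their sign under all 18 alternatives, while FKBP2, FKBP3 and FKBP4 changed sign under 3, 1 and 3. With each fetus left out in turn FKBP1B ran from -2.60 to -1.47 and FKBP5 from 0.33 to 0.76. Leaving out both dimmest arrays moved FKBP1B to -0.84 and FKBP5 to 0.029, and the mean over detected probes moved FKBP1A to 0.23 and brought the FKBP1B groups to overlap. Small differences of other FKBP genes reversed. FKBP11 was -0.082 with array brightness as a covariate, -0.095 without both dimmest arrays and -0.046 to 0.14 with each fetus left out. FKBP7 was -0.017 with normexp and -0.13 to 0.20 with each fetus left out. It was 0.26 with array brightness as a covariate and 0.38 without both dimmest arrays. FKBP9 was -0.21 to 0.029 with each fetus left out, and FKBPL was 0.065 without both dimmest arrays. The median of the HSP90 list was 0.19 without HN fetus L10 and that of the receptors and channels -0.33 without LN fetus L5. The causes were not tested. No gene of the 7 lists passed an adjusted limma p of 0.05 under any of the 18 alternatives, while lists with 0 genes at an unadjusted limma p of 0.05 had up to 3 under single alternatives (collagen folding without HN fetus L3). The groups share no replicate numbers, so fetuses could not be paired, and slide position as a block pairs arrays by their place on the slide alone. The second FKBP1B probe, near background in LN fetus L6, has no reliable level there.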
